A study of Mus musculus with 6 samples.

Results

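The myogenic regulatory factors (MRFs) are the 4 muscle-specific basic helix-loop-helix transcription factors encoded by *Myod1*, *Myog*, *Myf5* and *Myf6*. Their loci were followed in Hi-C maps of differentiating C2C12 cells. The members were chosen by gene name and placed in the 500 kb bin that held the transcription start site, which gave 3 bins because *Myf5* and *Myf6* fell in the same bin, out of 5019 bins with data in all 3 conditions. Values were read for these bins, for the bins within 2 Mb on either side, and for their correlation coefficients with every bin of the other chromosomes.

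C2C12 is an established mouse myoblast line that was derived from regenerating thigh muscle of C3H mice, and which fuses into multinucleated myotubes when serum is lowered. Hi-C libraries were made from 2 biological replicates of each of 3 conditions, 6 libraries in all, with no genetic change in any of them. Myoblasts were harvested as sub-confluent, proliferating cultures at day 0. Myotubes were harvested at day 3 of differentiation without cytosine arabinoside (AraC), so that these cultures still held some myoblasts. AraC-treated myotubes (called AraC myotubes) were kept in differentiation medium with AraC, a nucleoside analogue that kills dividing cells, from day 3 to harvest at day 7, a treatment meant to remove the remaining myoblasts. Days in culture, AraC and the share of myoblasts therefore changed together between the last pair of conditions and cannot be told apart.

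The authors deposited 1 matrix per condition, pooled over both replicates. A value states how alike the normalized interaction profiles of 2 bins are, as a correlation coefficient. It does not count contacts, and 2 bins with the same partners score high without touching. Replicate values and their SD were thus missing, no test could compare the conditions, and the depth behind a coefficient cannot be read from the matrices. The matrices listed 5455 bins. Between 5021 and 5034 of them held data in a given condition. The spread of coefficients between bins of different chromosomes also differed, with an SD of 0.0425 in myoblasts, 0.0853 in myotubes and 0.0700 in AraC myotubes. For this reason coefficients are also given as ranks or as z values, where z is the coefficient minus the mean over all bins on other chromosomes, divided by their SD, for the same member bin and condition.

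As background, *Myf5* and *Myod1* commit progenitor cells to the muscle lineage, *Myog* (myogenin) drives the terminal differentiation of myoblasts into myotubes, and *Myf6* (MRF4) acts in both early commitment and the maturation of fibres. All bind E-boxes as dimers with E proteins such as the products of *Tcf3* and *Tcf12*, while the Id proteins capture these E proteins and hold the MRFs inactive in proliferating cells. In the nucleus, active and gene-rich chromatin tends to share an A compartment and inactive, gene-poor chromatin a B compartment. C2C12 myoblasts already express *Myod1* and *Myf5*, whereas *Myog* is switched on when differentiation starts. Expression of the 4 genes was not analysed here.

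*Myog* lies on the plus strand at chr1:134289989-134292548 of mm10, in a bin (chr1:134000001-134500000) with start sites of 14 protein-coding genes. These included *Mybph*, a sarcomeric myosin-binding protein, *Btg2*, an antiproliferative factor, and *Adipor1*, an adiponectin receptor. *Myod1* lies on the plus strand at chr7:46376474-46379099. Its bin (chr7:46000001-46500000) held 8 protein-coding genes, among them the potassium channel genes *Kcnj11*, *Abcc8* and *Kcnc1*, and *Ush1c* and *Otog* of the inner ear. *Myf5* (chr10:107482908-107486134) and *Myf6* (chr10:107492853-107494737) lie on the minus strand in the bin chr10:107000001-107500000, with *Acss3* and *Lin7a* as the other coding genes. The start sites of *Myf5* and *Myf6* were 8.60 kb apart. They lay 13.9 kb and 5.26 kb from the upper end of their bin, so the neighbouring bin above it begins close to both genes.

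Chromatin was cut with HindIII, whose site is AAGCTT, and a locus enters a Hi-C map only through ligated ends at such sites. The sites nearest to the start sites of 3 of the genes are shown for that reason, as the plus strand of GRCm38 (the sequence of mm10, from RefSeq) with 20 bases on each side and the site in capitals. The site lies 0.606 kb from the start of *Myod1* (chr7:46375848-46375893), 1.73 kb from that of *Myog* (chr1:134288238-134288283) and 0.425 kb from that of *Myf5* (chr10:107485689-107485734). The site of *Myf5* is in the coding part of its exon, and the others overlap no annotated transcript.
*Myod1*: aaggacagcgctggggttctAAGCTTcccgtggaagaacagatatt
*Myog*: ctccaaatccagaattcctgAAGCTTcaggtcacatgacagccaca
*Myf5*: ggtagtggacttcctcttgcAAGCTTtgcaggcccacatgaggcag
The start site of *Myod1* is on a HindIII fragment of 2.61 kb and that of *Myog* on a fragment of 15.1 kb. That of *Myf5* is on a fragment of 3.01 kb, which meets the fragment with the start of *Myf6* at chr10:107488715-107488720. The *Myf5* and *Myf6* loci therefore had separate ligation ends, but at 500 kb they cannot be told apart and share every value that follows.

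The 3 bins differed in base composition. G and C made up 47.5% of the *Myog* bin and 50.2% of the *Myod1* bin, above 92.0% and 98.3% of the 5019 bins, but 38.7% of the *Myf5*/*Myf6* bin, which was above only 24.3% of them. The number of HindIII sites ran the other way, with 136 in the *Myog* bin, 145 in the *Myod1* bin and 172 in the *Myf5*/*Myf6* bin, against a median of 162 over all bins. The *Myog* and *Myod1* bins were thus rich in G, C and genes, while the *Myf5*/*Myf6* bin, with 4 coding genes against a median of 2, was poor in G and C.

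Upstream sequence was at hand for 2 of the 4 members. The 230 bases from 250 to 21 before the RefSeq start (GRCm38.p6) are shown for *Myog* (chr1:134289754-134289983, plus strand) and *Myf5* (chr10:107486155-107486384, minus strand, read 5′ to 3′), since the E-box CANNTG, in capitals, is the motif that MRFs bind.
*Myog*: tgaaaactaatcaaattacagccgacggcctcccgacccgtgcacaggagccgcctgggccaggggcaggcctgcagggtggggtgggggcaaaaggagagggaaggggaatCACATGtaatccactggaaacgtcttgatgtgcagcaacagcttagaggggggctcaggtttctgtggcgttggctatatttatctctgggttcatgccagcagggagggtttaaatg
*Myf5*: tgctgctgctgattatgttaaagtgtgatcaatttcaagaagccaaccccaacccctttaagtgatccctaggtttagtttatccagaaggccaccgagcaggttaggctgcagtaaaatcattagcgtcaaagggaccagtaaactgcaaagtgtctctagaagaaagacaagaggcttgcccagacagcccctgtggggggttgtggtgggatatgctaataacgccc
*Myog* held 1 E-box (CACATG) and *Myf5* none, where 63.5% of 32851 RefSeq promoters of the same length held at least 1. CAGCTG, an E-box form, was in neither and in 11.8% of promoters. Both motifs read the same on either strand, and CAGCTG is contained in CANNTG.

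The first question was in which compartment the MRF loci reside and whether they move during differentiation. PC1, the first principal component of the coefficients among the bins of a chromosome, was computed per chromosome and condition, with positive values (A compartment) where protein-coding start sites were denser. The *Myog* and *Myod1* bins were in the A compartment and the *Myf5*/*Myf6* bin in the B compartment in all 3 conditions. A changed sign of PC1 was seen in 0 of the 3 bins between myoblasts and myotubes, where 9.98% of all bins changed, in 0 between myoblasts and AraC myotubes (12.8% of all bins), and in 0 between myotubes and AraC myotubes (5.74%).

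*Myog* had PC1 values of 2.28 in myoblasts, 4.08 in myotubes and 3.44 in AraC myotubes. PC1 is on a wider scale in myotubes (SD over chr 1 of 0.890, 1.68 and 1.40 in the same order), so the values were divided by this SD and became 2.57, 2.42 and 2.45. The bin was near the top of chr 1 in every condition. It was above 98.7% (exact binomial 95% interval 97.0 to 99.6) of the 385 bins in myoblasts, 95.3% (92.7 to 97.2) in myotubes and 96.9% (94.6 to 98.4) in AraC myotubes. Such intervals cover counting error only, and neighbouring bins are not independent. The gene that marks terminal differentiation thus sat in strongly A-type chromatin in myoblasts, and its change in PC1/SD from myoblasts to myotubes (−0.14) was larger in size than that of 52.7% of chr 1 bins.

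*Myod1* had PC1 values of 1.22, 2.47 and 2.04 in myoblasts, myotubes and AraC myotubes, or 1.51, 1.65 and 1.72 after division by the SD. The bin was above 87.2% (82.5 to 90.9) of the 265 bins of chr 7 in myoblasts, 86.5% (81.8 to 90.3) of 266 in myotubes and 87.6% (83.0 to 91.3) of 266 in AraC myotubes. These intervals overlap. The rise in PC1/SD from myoblasts to AraC myotubes, by 0.21, was larger than the change of 65.7% of chr 7 bins, which does not set it apart from its chromosome.

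The *Myf5*/*Myf6* bin had PC1 values of −0.396, −0.835 and −0.746 in the same order, or −0.52, −0.57 and −0.59 after division by the SD. It was above 47.1% (40.8 to 53.4), 47.5% (41.2 to 53.8) and 45.9% (39.6 to 52.2) of the 255 bins of chr 10. The locus of *Myf5*, a gene of proliferating myoblasts, thus lay in the middle of the ranking of its chromosome and below zero in each condition. Its change in PC1/SD was small in every comparison, at −0.05 from myoblasts to myotubes, −0.07 from myoblasts to AraC myotubes and −0.02 from myotubes to AraC myotubes. Between 14.1% and 31.0% of chr 10 bins changed by less.

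In what follows, above and below a bin mean higher and lower coordinates. The surroundings of the 3 loci had different shapes, and none of their 27 bins within 2 Mb changed sign between any conditions. Over all bins 9.98%, 12.8% and 5.74% did so in the 3 comparisons, and the 27 are runs of neighbouring bins that are not independent. All 9 bins around *Myog* were A. PC1/SD there ranged from 1.11 to 2.57 in myoblasts, from 1.34 to 2.57 in myotubes and from 1.62 to 2.46 in AraC myotubes. *Tnni1*, the slow skeletal troponin I gene, starts 1.5 Mb above *Myog* in a bin at 2.24, 2.47 and 2.23. *Myod1* was on the falling side of an A peak: PC1/SD was highest 1 Mb below it (2.49) in myoblasts and myotubes (2.39), and 0.5 Mb below it (2.10) in AraC myotubes. It then fell through the *Myod1* bin to 1.04, 1.12 and 0.98 in the next bin above and to −0.67, −0.55 and −0.69 in the bin at 1 Mb above. The *Myod1* bin was therefore within 1 Mb of a boundary between A and B chromatin, with 5 A and 4 B bins around it in each condition. The coefficients of the *Myod1* bin showed the same edge. With the bin 0.5 Mb below, the coefficient was 0.158, 0.259 and 0.214 in myoblasts, myotubes and AraC myotubes, and with the bin 1 Mb above it was −0.0371, −0.0806 and −0.0619.

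Around *Myf5* and *Myf6* all 9 bins were B in each condition. The bin with both genes ranked second from the top of the 9, below its neighbour at chr10:107500001-108000000, which holds *Ptprq* and *Otogl*. That neighbour was close to zero, with PC1/SD of −0.01 in myoblasts, −0.09 in myotubes and −0.29 in AraC myotubes. Both genes thus lay at a local shoulder inside a long B block, at the side of the bin facing the least negative bin of the region.

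**Figure D1:**
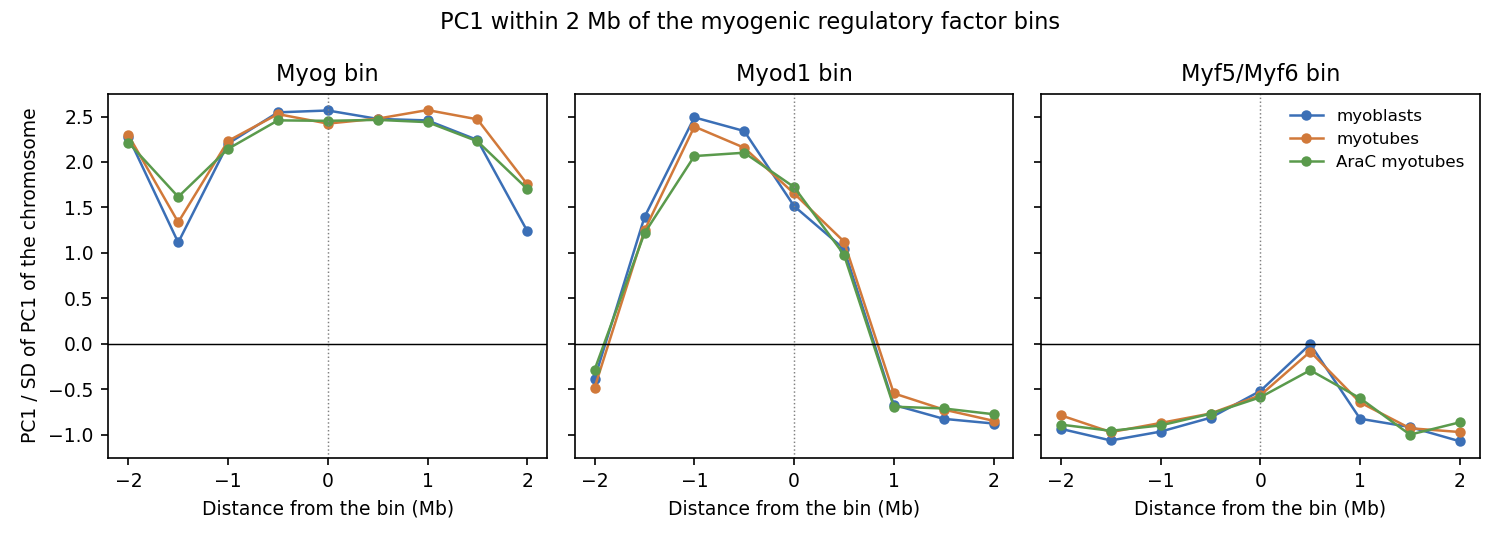
PC1 divided by its SD over the chromosome (vertical axis, no unit) against distance from the member bin in Mb (horizontal axis) for the 9 bins around each locus, with 1 line per condition and 1 pooled value per point. The lines of the 3 conditions lie close together, with *Myog* on a plateau near 2.5, *Myod1* on the slope of an A peak and *Myf5*/*Myf6* below zero throughout.

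Runs of neighbouring bins with equal sign gave the extent of each compartment block. *Myod1* lay in an A block of 2.5 Mb (chr7:44500001-47000000) in all 3 conditions. *Myf5* and *Myf6* lay in a B block that began at position 100000001 of chr 10 and spanned 11.5, 11.0 and 11.5 Mb in myoblasts, myotubes and AraC myotubes. This block runs through the bin of *Ptprq* and *Otogl*, so that its unbroken length in myoblasts rests on a value near zero (−0.01). The A block of *Myog* began at chr1:131000001 in each condition, but its upper end lay at position 136500000 in myoblasts, 137000000 in myotubes and 139000000 in AraC myotubes, so that it measured 5.5, 6.0 and 8.0 Mb. The bins that set these ends, looked at after the ends were known, were weak. The bin of *Nr5a2*, a nuclear receptor, and *Zfp281*, a zinc finger factor, had PC1/SD of −0.63, 0.10 and 0.57, and the bin above it, without a coding start site, had −0.90, −0.33 and 0.23. The bin of *Ptprc* and *Atp6v1g3* had −0.02, 0.16 and 0.37. In myotubes the bins from chr1:137500001 to 139000000 were already A, at 0.08, 0.16 and 0.43. The block ended below them only at the weak B bin chr1:137000001-137500000 (−0.33). The bin chr1:138500001-139000000 was A in myoblasts too (0.15). The unbroken run of A bins around *Myog* was thus longest by sign in the AraC myotubes, at values that were small beside the 2.45 of *Myog* itself.

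Next, the whole interaction profile of each bin was compared between conditions, as Pearson *r* over the other bins of its chromosome. This tells how far a locus kept its profile, but not apart from its compartment. PC1 held 37.2% to 74.3% of the variance of the coefficients within the 3 chromosomes. How far *r* follows from the size of PC1 was not tested. *Myog* had *r* of 0.973 for myoblasts against myotubes, 0.956 for myoblasts against AraC myotubes and 0.985 for the 2 kinds of myotubes. These were higher than in 98.2%, 98.3% and 96.5% of all bins. *Myod1* had 0.931, 0.916 and 0.982, above 81.5%, 87.3% and 93.4% of bins. For *Myf5*/*Myf6* the values were 0.762, 0.752 and 0.947, above 32.3%, 37.0% and 52.7% of bins, with medians over all bins of 0.869, 0.829 and 0.944. By Spearman rank correlation *Myog* was above 79.3%, 78.1% and 77.9% of bins, *Myod1* above 75.7%, 86.3% and 74.5% and *Myf5*/*Myf6* above 35.1%, 42.2% and 47.5%. The *Myog* profile was thus better conserved than in most bins, less so by ranks, while that of *Myf5*/*Myf6* fell below the median in both comparisons with myoblasts, which share the myoblast matrix. A negative *r* was seen in 0 of the 3 bins in each comparison, where the shares of all bins were 3.29%, 5.72% and 1.12% in the same order. Among bins of the same compartment in myoblasts the ranking was alike for the first comparison, with 95.4% of 1954 A bins lower than *Myog*, 71.8% lower than *Myod1* and 23.9% of 3065 B bins lower than *Myf5*/*Myf6*.

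Between chromosomes, the coefficients followed compartment. In myoblasts, the *Myog* bin had a mean coefficient of 0.113 ± 0.0968 (SD over 1669 bins) with A bins of other autosomes and −0.0569 ± 0.0278 (2675 bins) with B bins. In myotubes the means were 0.186 ± 0.166 and −0.130 ± 0.0425, and in AraC myotubes 0.166 ± 0.137 and −0.109 ± 0.0356. The difference between A and B partners was therefore 0.170, 0.316 and 0.275, which ranks the conditions as the SD of all coefficients between chromosomes does.

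For *Myod1* the difference between A and B partners was 0.0975, 0.203 and 0.169 in the same order. The sign was turned for *Myf5*/*Myf6*, with −0.0364, −0.118 and −0.0933. The *Myf5*/*Myf6* bin was the least polarized of the 3 in myoblasts, where its coefficient was positive with 83.6% of B bins and with 25.3% of A bins of other autosomes. In myotubes these shares were 98.6% and 14.8%, and in AraC myotubes 97.5% and 12.6%. On its own chromosome beyond 2 Mb, 88.8% of B bins had a positive coefficient in myoblasts and 100% in both later conditions.

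**Figure D2:**
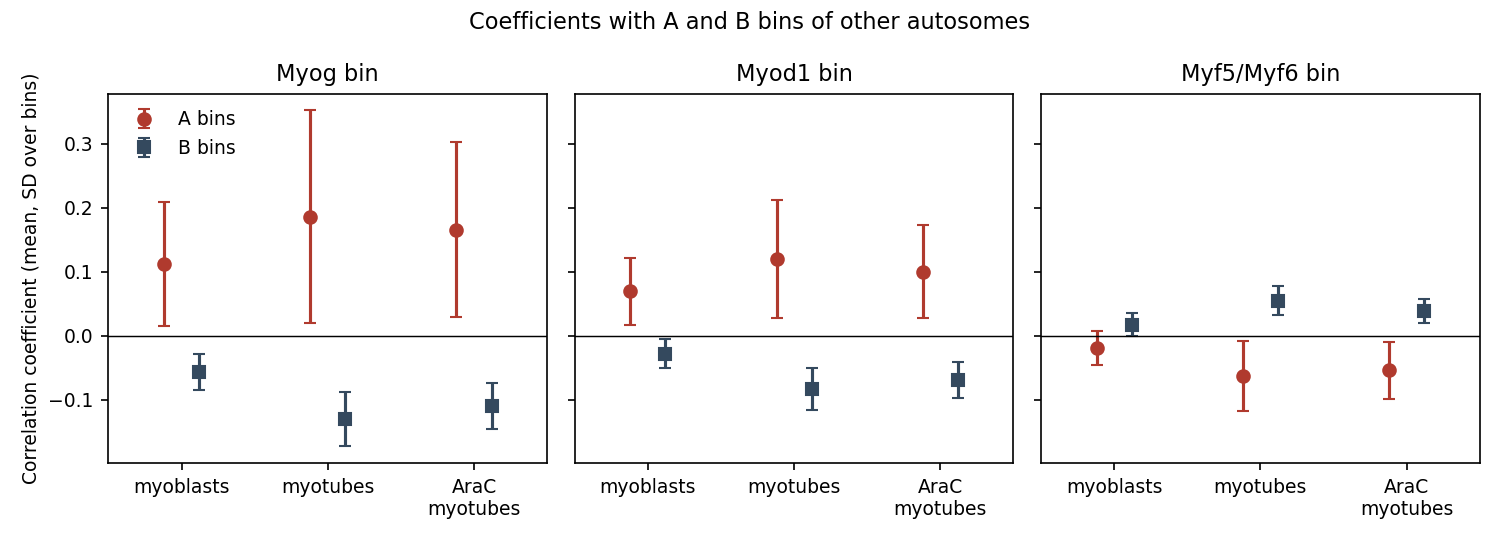
Mean correlation coefficient (vertical axis, no unit) of each member bin with A bins (circles) and B bins (squares) of other autosomes in the 3 conditions, with bars of 1 SD over bins and not over replicates. *Myog* and *Myod1* have positive means with A bins and negative means with B bins, *Myf5*/*Myf6* the reverse, and the separation is widest in myotubes.

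The MRF loci were then set against each other. *Myog* and *Myod1* had a coefficient of 0.157 in myoblasts, 0.237 in myotubes and 0.187 in AraC myotubes. On average over both ends of the pair, 93.1%, 91.0% and 90.1% of bins on other chromosomes were lower, so that this pair ranked high but did not climb with differentiation. Among partner bins of the A compartment alone, the shares fell to 82.3%, 75.6% and 72.5%. The coefficient of *Myog* with *Myf5*/*Myf6* was −0.0578, −0.139 and −0.107, with 16.0%, 15.6% and 20.1% of bins lower. For *Myod1* with *Myf5*/*Myf6* it was −0.0431, −0.105 and −0.0586, with 10.9%, 12.4% and 29.9% of bins lower. Among partner bins with the PC1 sign of the partner alone, the shares were 27.8%, 26.8% and 34.2% for *Myog* with *Myf5*/*Myf6* and 21.0%, 25.2% and 56.2% for *Myod1* with *Myf5*/*Myf6*, so that in AraC myotubes the latter coefficient was above most others with bins of that sign. The 2 MRF loci of the A compartment thus had similar partners in each condition, and their coefficients with *Myf5*/*Myf6* were negative.

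The strongest partners show which chromatin each locus resembled. For *Myog*, the highest coefficient in myoblasts (0.365) was with chr5:122500001-123000000, which holds *Atp2a2*, the calcium pump of the sarcoplasmic reticulum in slow and cardiac muscle. This bin ranked 18 of 4634 in myotubes and 42 in AraC myotubes. In myotubes the first partner was chr8:122000001-122500000 with *Zfpm1*, a cofactor of GATA factors, at 0.550. In AraC myotubes it was chr17:28000001-28500000 with *Tead3*, a factor that binds MCAT elements of muscle genes, and *Ppard*, a nuclear receptor of fatty acid oxidation, at 0.469. That bin ranked 25 in myoblasts and 2 in myotubes, and it also ranked 2 for *Myod1* in myoblasts (0.205).

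The first partner of *Myod1* was chr2:31000001-31500000 with *Fnbp1* and *Ncs1* in myoblasts (0.211). It was chr15:76000001-76500000 with *Bop1* and *Cyc1* in myotubes (0.307). In AraC myotubes it was chr10:80500001-81000000 (0.273), a bin with *Gadd45b*, a stress-induced gene, and *Dot1l*, a histone H3 methyltransferase. In the same order of conditions, these first partners held 5, 25 and 26 coding genes. The 50 strongest partners of *Myog* and of *Myod1* were all A bins in each condition, where 35.9% to 39.1% of all bins on other chromosomes were A, and they held a median of 12.0 to 14.5 coding genes against 2 over all such bins.

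The partners of *Myf5*/*Myf6* were almost all B bins, and weaker. The highest coefficient was 0.0810 in myoblasts, with chr1:194500001-195000000, the bin of *Cd34*, a surface marker of quiescent muscle satellite cells among others, and *Plxna2*, a semaphorin receptor. It ranked 3084 of 4764 in myotubes and 2426 in AraC myotubes. In myotubes the first partner was chr2:178000001-178500000 with *Phactr3* and *Cdh26* (0.129), and in AraC myotubes chr3:153500001-154000000 with *Acadm*, an enzyme of fatty acid oxidation, and *Msh4* (0.107). Of the 50 strongest partners, 1 was an A bin in myoblasts and 0 in the other conditions. No coding start site lay in 13, 17 and 16 of the 50, where 24.3% of all partner bins had none. The 50 held a median of 2, 1 and 2 coding genes against 2 over all such bins, so their gene content was close to that of bins in general.

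The strongest partners of *Myog* were largely kept through differentiation, and those of *Myf5*/*Myf6* were not. *Myog* shared 34 of its 50 partners of myoblasts with myotubes, 31 with AraC myotubes and 42 between the last pair of conditions. These were more than in 96.9%, 97.2% and 99.3% of all 5019 bins, whose medians were 8, 5 and 11. *Myod1* shared 21, 16 and 24, more than 83.0%, 83.7% and 82.7% of bins. Among A bins of myoblasts alone, *Myog* was above 92.2%, 92.7% and 98.1% and *Myod1* above 63.3% to 68.1%. *Myf5*/*Myf6* shared 2, 1 and 5, more than 14.0%, 11.1% and 20.4% of bins, or 11.7%, 9.23% and 19.7% of B bins. In all 3 conditions 29 partners of *Myog*, 11 of *Myod1* and 0 of *Myf5*/*Myf6* were the same. The median was 2 over all bins, 4 over A bins and 2 over B bins of myoblasts. The counts of *Myog* and *Myod1* were above those of 98.0% and 82.6% of all bins, and the 0 of *Myf5*/*Myf6* was near the median. *Myog* and *Myod1* also had partners in common, 31 of 50 in myoblasts, 27 in myotubes and 19 in AraC myotubes. Partners shared by other pairs of A bins were not counted.

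The partners of *Myf5*/*Myf6* in myoblasts lay towards the distal ends of chromosomes, a feature looked at after the partners were known. Their median distance from the end was 9.25 Mb, against 64.0 Mb over all bins of other chromosomes, and 27 of 50 lay within 10 Mb. That count was above those of 92.4% of all bins and 90.7% of B bins in myoblasts. The strongest of these partners, from chr1:193500001 to 195000000, were neighbouring bins, so the 27 are not independent. In myotubes and in AraC myotubes 12 of 50 lay within 10 Mb, at medians of 24.5 and 46.8 Mb. These counts were above those of 69.6% and 79.8% of all bins, and of 69.5% and 86.6% of B bins. The *Myf5*/*Myf6* bin itself lies 23.5 Mb from the end of chr 10. For *Myog* the counts were 10, 12 and 9 and for *Myod1* 4, 9 and 10. Distal bins were thus most frequent among the partners of *Myf5*/*Myf6* in myoblasts, though not for this bin alone. By rank among B bins, the count in AraC myotubes was also fairly high.

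The largest single changes were counted as differences in z. Between myoblasts and myotubes, 0 of 4634 bins changed by more than 2 for *Myog*, 0 of 4754 for *Myod1* and 52 of 4764 for *Myf5*/*Myf6*. Between myoblasts and AraC myotubes the numbers were 2, 1 and 76, and between myotubes and AraC myotubes 0 for each. The SD of the change for *Myf5*/*Myf6* was 0.73, against 0.30 for *Myog* and 0.40 for *Myod1*, in the first comparison. For that comparison, Pearson *r* over bins of other chromosomes was 0.733 for *Myf5*/*Myf6*, above 35.9% of all bins (median 0.808). It was 0.955 for *Myog* and 0.922 for *Myod1*, above 98.0% and 88.5% of all bins. By this *r*, *Myog* changed less than nearly all bins, and *Myf5*/*Myf6* somewhat more than the median bin. The SD of the change in z follows from the same *r*. Rank correlation was not run between chromosomes, and within chromosomes it placed *Myog* less high, as given above. The changes in both comparisons with myoblasts share the myoblast matrix. The coefficients of *Myf5*/*Myf6* are also the smallest in size, with an SD of 0.0278 over partner bins in myoblasts against 0.101 for *Myog*, and the part of noise in these changes was not tested.

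For *Myog*, the largest rise was with chr8:128500001-129000000, the bin of *Itgb1*, the integrin subunit beta 1 that myoblasts need for fusion and adhesion. Its z went from −0.86 in myoblasts to 1.05 in myotubes and 1.66 in AraC myotubes. The bin itself moved from a PC1 of −0.10 in myoblasts to 1.50 and 2.11 in the later conditions, from B to A. The bin of *Pard3*, a polarity gene, at chr8:127000001-127500000 rose from 0.33 to 2.03 in myotubes. Between myoblasts and AraC myotubes, the bin of *Itga9*, *Ctdspl* and *Golga4* at chr9:118500001-119000000 rose from −0.63 to 1.50. The largest fall was with chr6:52500001-53000000 (*Hibadh* and *Tax1bp1*), from 1.92 to 0.39 in myotubes and 0.31 in AraC myotubes. The bin of *Itgb1*, picked for its rise, came closer to *Myog* in profile as it entered the A compartment. Here and below, z and PC1 come from the same matrix and the coefficients follow compartment, so the changes in both are not independent. PC1 of partner and list bins is not divided by its SD. On chr 1, chr 7 and chr 10 that SD was larger in both later conditions, so sizes of PC1 do not compare directly between conditions.

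For *Myod1*, the bin of *Caprin2*, *Ipo8* and *Sinhcaf* at chr6:148500001-149000000 rose from −0.76 in myoblasts to 0.88 in myotubes and 1.39 in AraC myotubes. The bin of *Sox1*, a gene of neural progenitors, at chr8:12000001-12500000 fell from 1.02 to −0.69 and −0.76, as its PC1 went from 0.14 to −1.28 and −0.75. The bin of *Arid2* and *Scaf11*, which encode a chromatin remodelling subunit and a splicing factor, rose from −0.90 to 1.05 in AraC myotubes.

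*Myf5*/*Myf6* changed in the opposite direction with the same stretch of distal chr 6. The bin chr6:147500001-148000000, with no coding start site, had z of 2.12 in myoblasts, −1.14 in myotubes and −1.77 in AraC myotubes with *Myf5*/*Myf6*, while its z with *Myod1* rose from −0.28 to 1.39 in myotubes. Its PC1 was 0.48, 2.23 and 2.49. The neighbouring bin of *Far2*, *Ergic2* and *Tmtc1* fell with *Myf5*/*Myf6* from 2.21 in myoblasts to −1.61 in AraC myotubes, as its PC1 went from −0.08 to 2.18. A distal chr 2 bin with *Lama5*, a laminin chain, and *Gata5* fell from 2.36 to −0.60 in myotubes. The named rises for *Myf5*/*Myf6* were with bins whose PC1 fell. The bin of *Nid1*, a basement membrane protein, rose from −1.90 to 0.65 in myotubes, and that of *Vim*, the intermediate filament of proliferating mesenchymal cells, from −1.82 to 0.72 in AraC myotubes. The PC1 of the *Vim* bin was 0.35 in myoblasts and −0.69 in AraC myotubes.

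**Figure D3:**
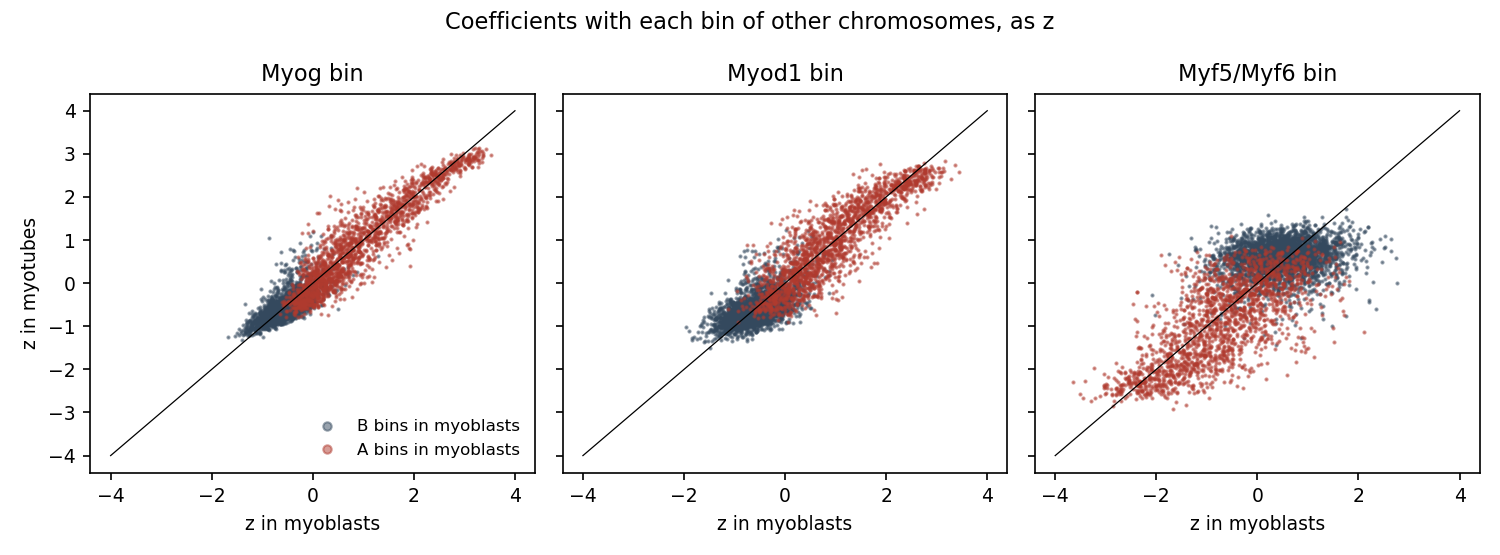
z of the coefficient in myotubes (vertical axis) against z in myoblasts (horizontal axis) for each member bin, with 1 point per bin on another chromosome coloured by its compartment in myoblasts and a line of equal z. Points of *Myog* and *Myod1* lie along the line, whereas those of *Myf5*/*Myf6* spread more widely around it (SD of the change 0.73 against 0.30 and 0.40). Pearson *r* of these values was above that of 98.0% of all bins for *Myog*, 88.5% for *Myod1* and 35.9% for *Myf5*/*Myf6*.

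To place the loci beside the genes of their pathway, 57 genes in 6 lists (E proteins, inhibitors, upstream regulators, MEF2 factors and cofactors, cell cycle exit and fusion genes, and contractile and receptor target genes) were located in 50 bins. All 57 were found in the annotation. In myoblasts 43 of the 57 lay in the A compartment, where 59.8% of 21217 protein-coding genes did, in myotubes 42 (58.5% of all) and in AraC myotubes 42 (57.5%). Of the 57, 5 (8.77%) changed compartment from myoblasts to myotubes, where 9.98% of all bins did. The same 5 differed between myoblasts and AraC myotubes (12.8% of all bins). These shares are of genes and the background is of bins, so the comparison is rough. The 5 genes lay in separate bins of the 50, but those of *Eya1* and *Msc* are neighbours on chr 1 and not independent. Neither share stood out from that of all bins. *Id4* and *Msc*, which encode inhibitors of E-box factors (PC1 of *Id4* was close to zero, at 0.13, −0.44 and −0.03), and *Eya1*, a cofactor of homeobox factors, went from A to B. *Ttn* (titin) and *Neb* (nebulin), giant proteins of the sarcomere, went from B to A. In myoblasts the PC1 of *Msc* (0.06), *Ttn* (−0.13) and *Neb* (−0.21) was also close to zero. No list gene (0 of 57) differed in compartment between the last pair of conditions, where 5.74% of all bins did.

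All 3 E protein genes were in the A compartment in each condition. Their median z with *Myog* was 1.91, 1.80 and 1.68 in myoblasts, myotubes and AraC myotubes, and with *Myod1* 1.98, 1.87 and 1.90. For comparison, the medians over all bins with coding start sites in the A compartment were 0.80, 0.96 and 1.06 for *Myog* and 0.93, 1.06 and 1.12 for *Myod1*. *Tcf3* (E12 and E47) was highest with *Myog*, at 3.14, 2.69 and 2.63. These 3 loci thus resembled *Myog* and *Myod1* more than the median coding A bin did, in myoblasts as in myotubes. *Tcf4* was nearest to that median in myoblasts, at 1.04 with *Myog* and 1.07 with *Myod1*. The likeness was not particular to E proteins, as the cell cycle exit and fusion genes had a median of 2.57 with both loci in myoblasts. With *Myf5*/*Myf6*, *Tcf12* was at −1.33, −2.09 and −1.57 and *Tcf4* at −0.81, −1.71 and −2.00.

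The inhibitors were mixed. Of the 9 genes, 7 were in the A compartment in myoblasts and 5 in both later conditions. *Id3*, the inhibitor that binds E proteins, was high with *Myog* (3.09, 3.00 and 2.88) and *Twist2* with *Myod1* (2.77, 2.61 and 2.12). *Twist1*, which represses muscle differentiation, was low with *Myog* (−0.37, −0.67 and −0.64). With *Myf5*/*Myf6* it had z of −0.48 in myoblasts, 0.81 in myotubes and 0.95 in AraC myotubes. Over the list the median z with *Myog* was 0.36, 0.62 and 0.50 and with *Myod1* 0.67, 0.71 and 0.61, above the medians over all bins with coding start sites (−0.20, −0.28 and −0.32 for *Myog* and −0.11, −0.22 and −0.24 for *Myod1*). Over the A bins of the list it was 0.96, 1.27 and 0.99 with *Myog* and 1.18, 2.02 and 2.00 with *Myod1*, against the medians over all coding A bins given above.

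Of the 7 upstream regulators, 6 were in the A compartment in myoblasts and 5 in each later condition. Their median z with *Myog* was 1.92, 1.92 and 2.03 over the 4 bins off chr 1, all of them A. With *Myod1* it was 1.08, 1.29 and 1.15 over all 6 bins. Those include *Pax3* and *Eya1* of chr 1, both B in the later conditions. Over A bins of the list it was 1.54, 1.75 and 1.66 with *Myod1*, beside medians of 0.93, 1.06 and 1.12 over all coding A bins. *Eya2* was highest with *Myog* in myotubes (2.72, 2.13 and 2.07). *Pax3*, which lies upstream of *Myf5* in the embryo, was low with *Myod1* at −0.15, −0.49 and −0.46.

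Of the 8 MEF2 factors and cofactors, 6 were in the A compartment in each condition. *Ep300*, a histone acetyltransferase that MRFs recruit, had z of 2.74, 2.84 and 2.90 with *Myog* and −1.17, −2.49 and −2.27 with *Myf5*/*Myf6*. *Srf*, the serum response factor, was at 2.70, 2.59 and 2.30 with *Myod1*. *Mef2c*, a MEF2 factor that acts with MRFs on muscle genes, and *Kat2b*, an acetyltransferase of MyoD, were the members in B chromatin. *Mef2c* was at −0.35, −0.75 and −0.42 with *Myod1*, and *Kat2b* at 1.11, 0.61 and 0.90 with *Myf5*/*Myf6*.

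All 6 cell cycle exit and fusion genes were in the A compartment in each condition. Their median z was 2.57, 2.53 and 2.48 with *Myog* and 2.57, 2.43 and 2.41 with *Myod1*, and −2.09, −2.20 and −2.23 with *Myf5*/*Myf6*. With *Myod1*, the A bins of the MEF2 list alone had medians of 2.62, 2.56 and 2.30. *Cdh15* (M-cadherin) was the highest of the list with *Myog* in each condition, at 3.36, 3.03 and 2.96. *Mymx* (myomixer), a fusion protein, was at 2.57, 2.57 and 2.43 with *Myod1*. *Cdkn1c* (p57), an inhibitor of cyclin-dependent kinases, moved most in this list. It had z of 0.44, 1.71 and 2.21 with *Myog* and 0.92, −1.47 and −2.04 with *Myf5*/*Myf6*, as its PC1 went from 0.43 to 2.09 and 2.32. The SD of PC1 over chr 7 was 0.804, 1.50 and 1.19 in the same order, so part of this rise in PC1 is one of scale.

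Of the 24 contractile and receptor target genes, 15 were in the A compartment in myoblasts and 17 in both later conditions. Over the bins on other chromosomes the median z was 1.04, 1.51 and 1.59 with *Myog* and 1.16, 1.76 and 1.69 with *Myod1*, against −1.01, −1.50 and −1.49 with *Myf5*/*Myf6*. *Acta1*, skeletal alpha-actin, was highest with *Myog* at 3.05, 2.91 and 3.03 and lowest with *Myf5*/*Myf6* in myotubes (−1.87, −2.48 and −2.57). *Chrnb1*, a subunit of the acetylcholine receptor, was at 2.35, 2.43 and 2.52 with *Myod1*. The cluster of skeletal myosin heavy chain genes (*Myh3*, *Myh2*, *Myh1*, *Myh4* and *Myh8* in 1 bin of chr 11) was lowest with *Myog*, at −1.33, −0.49 and −0.21. *Ttn* had z of −0.00267, 1.18 and 1.38 with *Myog* and 0.38, −1.45 and −1.49 with *Myf5*/*Myf6*. Members of this list differed widely from each other, with an SD over bins of 1.31, 1.14 and 1.04 for *Myog*.

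**Figure D4:**
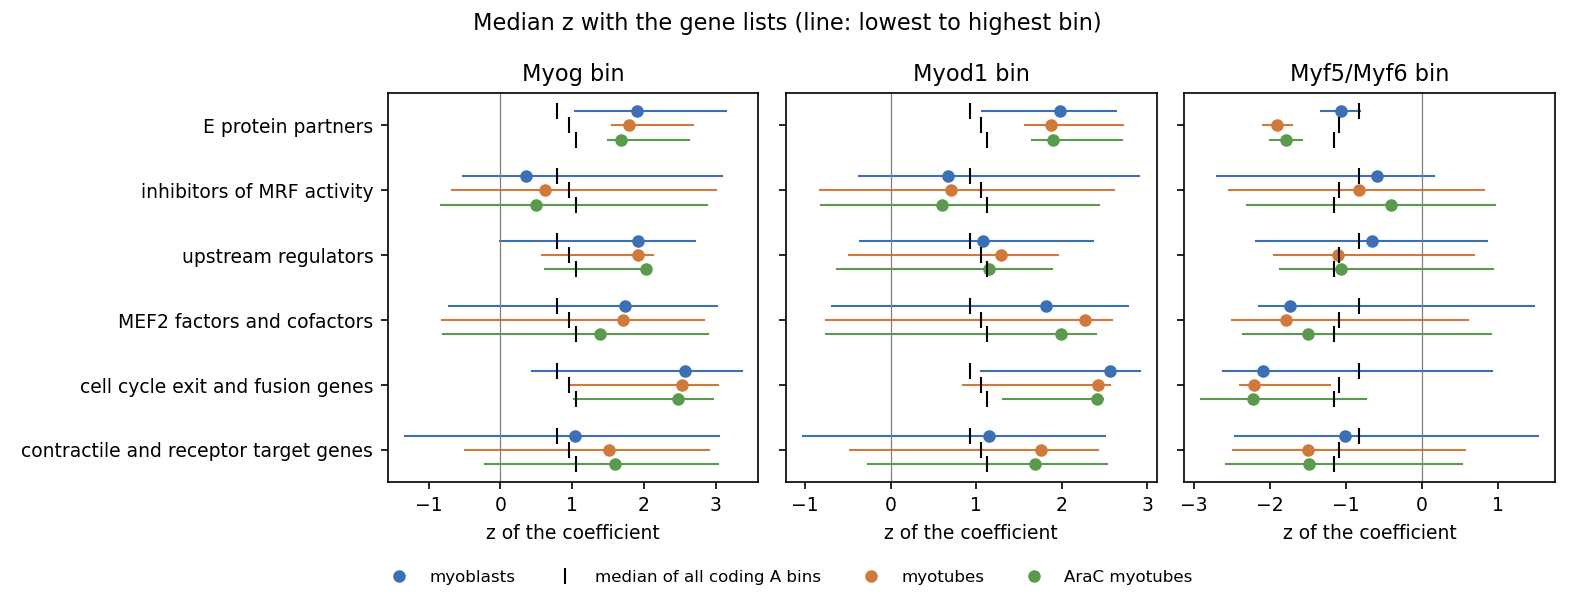
Median z (points) of the coefficients between each member bin and the bins of each gene list on other chromosomes, with lines from the lowest to the highest bin and black ticks at the median over all A bins with coding start sites, by condition (colours). Fusion and cell cycle exit genes stand at 2.41 to 2.57 for *Myog* and *Myod1* and at −2.09 to −2.23 for *Myf5*/*Myf6*, and the lists of inhibitors and target genes span A and B chromatin.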

How the data were processed

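Hi-C was measured in C2C12 cells. By the study's methods and the submitters' processing notes, the authors mapped reads with Bowtie, filtered them in HiCUP, pooled replicates and normalized in HOMER. The deposited values are a score, the correlation coefficient of the interaction profiles of 2 bins of 500 kb of mm10. They were used as deposited, and 0 columns belonged to unmapped samples. The matrices do not show the depth behind a coefficient.

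Python 3.11.15 with NumPy 2.4.6, SciPy 1.17.1, pandas 2.3.3 and Matplotlib 3.10.9 served for the computation. Genes were placed by GENCODE vM21 (GRCm38). For PC1, columns of each within-chromosome block were centred but left unscaled, and bins without data were omitted. A list's *z* counts each bin once. Exact binomial intervals are at 95%. With pooled replicates there was no test.

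The members and gene lists were chosen with earlier results of these data known. Named were the members, their bins' coding genes and neighbours within 2 Mb, the 5 strongest partners per bin and condition, the 3 largest rises and falls of z, and the highest and lowest genes of each list. Genes that changed compartment, *Cdkn1c*, *Tnni1*, distal partner positions and block ends were picked once their values were known. The steps were tested on simulated matrices. Alternatives were scaled columns, PC1 from other chromosomes, smoothing over neighbouring bins, Spearman correlation, exclusion of bins within 2 Mb, other thresholds, autosomes only, 100 partners, each gene counted once and A bins only. A HindIII window and values of a list gene are not reported here.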

Additional observations from a re-analysis of the deposited data

How the results depend on the processing

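No paired analysis was possible because both replicates of each condition were pooled before deposit, and for the same reason no replicate could be left out. The compartments of the 3 bins and the absence of a sign change of PC1 or of a negative profile *r* held under every alternative run, and no value changed sign. Of 27 recomputed PC1 shares 26 stayed within their interval, and the share of *Myog* in myotubes was 97.4% with PC1 averaged over neighbouring bins. Of 27 recomputed shares of bins with a lower profile *r*, 19 left their narrow intervals, most for *Myog* by Spearman correlation (77.9% to 79.3%). Shares of lower bins for pairs of loci moved beyond their intervals throughout, and are given for myoblasts, myotubes and AraC myotubes in turn. Averaged over the 9 pairs of neighbouring bins they were 94.2%, 92.2% and 91.2% for *Myog* with *Myod1*, 25.3%, 19.7% and 15.1% for *Myog* with *Myf5*/*Myf6* and 7.47%, 21.9% and 25.4% for *Myod1* with *Myf5*/*Myf6*. Among bins with the PC1 sign of the partner they were 82.3%, 75.6% and 72.5%, then 27.8%, 26.8% and 34.2%, then 21.0%, 25.2% and 56.2%. By Pearson *r* of both rows they were 90.6%, 89.7% and 88.7%, then 24.6%, 9.94% and 8.14%, then 12.5%, 7.35% and 24.1%. The order of conditions for pairs with *Myf5*/*Myf6* therefore depended on the measure, and the cause was not tested. Shared partners of *Myod1* between myoblasts and AraC myotubes were 51 of 100, or 27 of 50 after averaging over neighbours. For *Myf5*/*Myf6* they were 14 of 100 between myoblasts and myotubes and 7 of 100 between myoblasts and AraC myotubes, or 7, 4 and 8 of 50 for the 3 comparisons after averaging, still fewer than for the other loci. Medians of 3 lists moved by over 1.5 times over A bins only or with each gene counted once. Over A bins only, those of the inhibitors with *Myod1* were 1.18, 2.02 and 2.00, against 0.67, 0.71 and 0.61 over all list bins. With *Myog* they were 0.96, 1.27 and 0.99, and with *Myf5*/*Myf6* −0.59, −2.16 and −1.28 against −0.59, −0.83 and −0.41. With each gene counted once, the target genes in myoblasts were at 0.56 with *Myog* and 0.68 with *Myod1*, against 1.04 and 1.16, and over A bins only at 1.75 and 2.13. The upstream regulators with *Myf5*/*Myf6* were at −1.04, −1.69 and −1.68 with each gene counted once, against −0.65, −1.10 and −1.07.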
